A study of Dendrobium officinale with 6 samples.

Results

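In leaves of the medicinal orchid Dendrobium officinale, 94 of 60597 assembled genes were already well expressed in solvent-sprayed plants and stood at least 2 times higher after methyl jasmonate (MeJA). They were chosen from the measured levels. A gene was taken if its mean over the 3 control libraries was at least 50 TPM (a transcript level corrected for length and scaled to the same total in each library) and if its lowest MeJA value was at least 2 times its highest control value. Of the 3214 genes at this control level, 2.92% met the rule. All plants were 6 months old and were grown at 25 °C with 12 h of light a day. The MeJA leaves were sprayed with 100 µM MeJA in ethanol for 24 h, and the control leaves were sprayed with ethanol alone. No time of harvest was found for the control leaves. Each group had 3 RNA sequencing libraries, and nothing in the labels says whether these came from separate plants, so their spread may be technical.

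Jasmonates are lipid-derived hormones that plants make when wounded or attacked by insects. In Arabidopsis the active hormone joins the receptor COI1 to JAZ repressor proteins, which are then degraded, and transcription factors such as MYC2 are released to act on their target genes. In many plants MeJA sprayed on leaves raises enzymes that make defence compounds, and the study looked for genes that accompany its effect on alkaloids.

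The identifiers were those of a de novo assembly and were paired with no gene name or sequence in the sources used here. No role can therefore be given to a member, the leaf identity of the samples could not be checked by marker genes, and lists of jasmonate, alkaloid and terpenoid genes could not be applied. The members are numbered from 1 to 94 by falling control mean. The deposited values name no unit and were taken as TPM, all libraries having the same total of 1000000. How many reads lie behind a level is unknown. In both groups library 1 stood between libraries 2 and 3 at most members, at 81 of 94 in controls and 85 of 94 under MeJA. Its distance from the mean of libraries 2 and 3 had a median of 2.88% in controls and 2.28% under MeJA, whereas libraries 2 and 3 differed by 32.6% and 22.1% of that mean. Where the libraries of a group are not independent, the SDs and SEs given below are too small. With libraries 2 and 3 of each group alone the rule took 95 genes, 93 of them among the 94. Leaving out libraries cannot bring a member's lowest MeJA value closer to its highest control value. A member could therefore drop out only through its control mean, and the count does not bear on whether the libraries are independent.

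The control means of the members ran from 50.6 to 1951 TPM, with a median of 109 TPM. Their MeJA means ran from 144 to 9349 TPM, with a median of 499.7 TPM. The ratio of the MeJA mean to the control mean had a median of 4.23 and quartiles of 3.23 and 6.31. It was at least 3 in 76 members, at least 5 in 37 and at least 10 in 7, and its highest value was 27.2. On the log2(TPM + 1) scale the median difference, MeJA minus control, was 2.07 over the members and -0.17 over the 55498 genes tested, those averaging 1 TPM or more across the 6 libraries. Under median-ratio size factors, which brought the median of all genes to -0.01, the median of the members was 2.28. All 94 were called higher by limma at an adjusted p under 0.05, where 6.15% of all genes tested were, and 11.8% of all genes tested had every MeJA library above every control. The rule used this contrast, so nothing is read from that count.

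**Figure D1:**
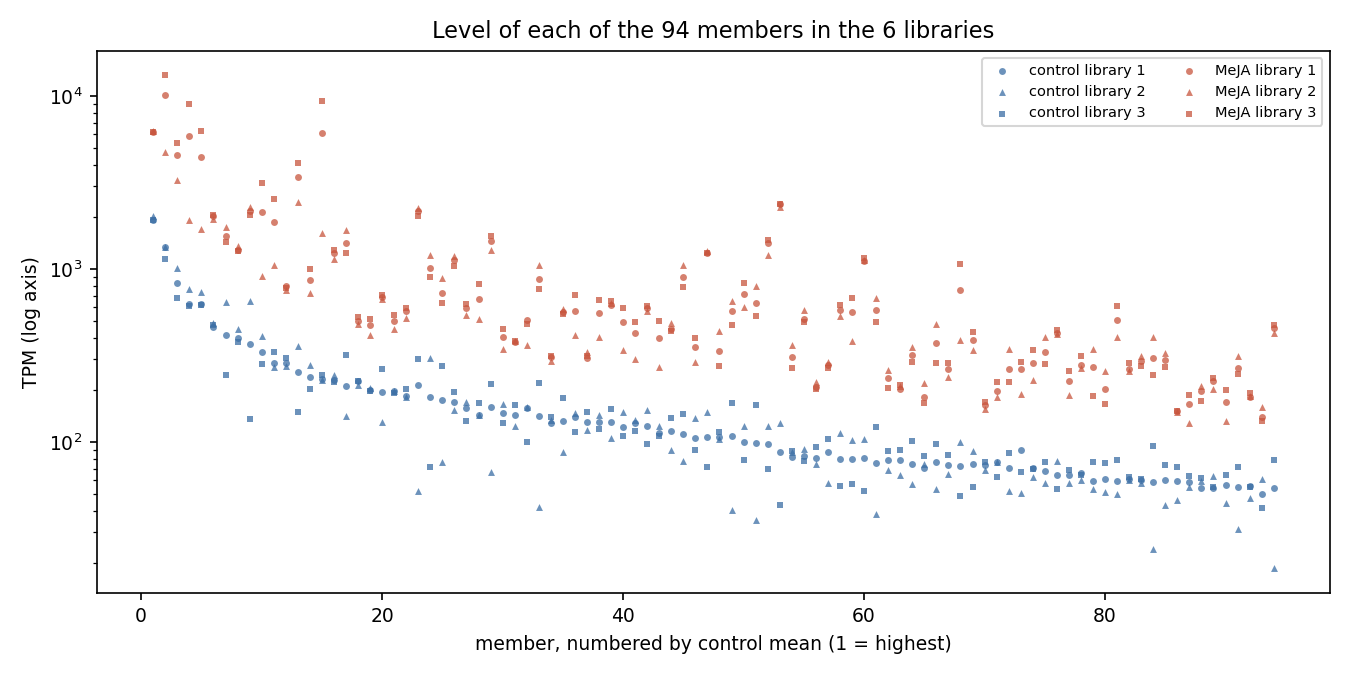
Level in TPM (log axis) of the 94 members in 3 control libraries (blue) and 3 MeJA libraries (red), 1 point per library, ordered by control mean. The MeJA points lie above the control points at every member, as the rule requires, with the widest MeJA spread at member 15 and the widest control spread at member 23.

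The share of members showed no steady trend with control level. They made up 2.51% of the 1751 genes at a control mean of 50 to 100 TPM, 4.06% of the 763 genes at 100 to 200 TPM, 3.00% of the 467 genes at 200 to 500 TPM and 1.92% of the 156 genes at 500 to 1000 TPM. At 1000 TPM or more, 2 of 77 genes were members. From the lowest class to the highest, the median ratio of means over the members was 4.20, 4.14, 4.76, 6.28 and 5.26, the last 2 values resting on 3 and 2 members.

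The 5 members with the highest control means were all abundant before treatment and fell into members with even and with uneven MeJA levels. Member 1, TRINITY_DN23015_c0_g2, stood at 1923, 2014 and 1915 TPM in control libraries 1, 2 and 3 and at 6211, 6244 and 6157 TPM in MeJA libraries 1, 2 and 3. Its means were 1951 ± 55.1 and 6204 ± 43.9 TPM (SD over 3 libraries each), and the log2 fold change was 1.67 ± 0.14 (SE). Both groups were tight, and the gene moved from rank 20 by control mean to rank 3 by MeJA mean.

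Member 2 held 1339, 1333 and 1146 TPM in the controls and 10182, 4731 and 13135 TPM in the MeJA libraries. Its controls were close together, while MeJA library 3 held 2.78 times the level of MeJA library 2. It ranked 49 by control mean and 1 by MeJA mean, with a log2 fold change of 2.76 ± 0.37. Member 3 held 829.97, 1014 and 678 TPM in the controls and 4535, 3271 and 5313 TPM under MeJA. Control library 3 was the lowest control and MeJA library 3 the highest MeJA library at this gene. The log2 fold change was 2.37 ± 0.23.

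Members 4 and 5 were the most uneven of the 5. Member 4 held 626, 765 and 614 TPM in the controls and 5867, 1912 and 8922 TPM under MeJA. Member 5 held 627, 732 and 618 TPM in the controls and 4461, 1705 and 6245 TPM under MeJA. In both, MeJA library 2 was the lowest of its group and control library 2 the highest of its own, though equal numbers do not pair the libraries. Their log2 fold changes were 2.80 ± 0.53 and 2.46 ± 0.45.

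By MeJA mean the leading 5 members were members 2, 1, 15, 4 and 3. Member 15 started lower than the others, at 231, 228 and 242 TPM in the controls, and stood at 6121, 1613 and 9308 TPM in the MeJA libraries. Its means were 234 ± 7.54 and 5681 ± 3867 TPM (SD over 3 libraries each), a ratio of 24.3, and it moved from rank 583 to rank 4. Among the members it had the widest MeJA spread, with its highest MeJA library at 5.77 times its lowest, although its controls lay within 1.06-fold of each other. No member was among the 10 highest genes by control mean, and 6 were among the 10 highest by MeJA mean. Among the 100 highest genes, 2 were members by control mean and 26 by MeJA mean.

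The 5 members with the clearest gap between the groups were not among the leading 5 by control mean or by MeJA mean. Most of them were even under MeJA. Member 53, TRINITY_DN10187_c0_g3, held 87.5, 128 and 42.9 TPM in the controls and 2365, 2293 and 2372 TPM in the MeJA libraries. The lowest MeJA value was 17.9 times the highest control value. The controls spread 2.98-fold and the MeJA libraries 1.03-fold, and the log2 fold change was 4.88 ± 0.36.

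Member 60 held 80.8, 104 and 52.1 TPM in the controls and 1117, 1126 and 1163 TPM under MeJA. Member 52 held 97.8, 123 and 69.5 TPM in the controls and 1412, 1210.3 and 1471 TPM under MeJA. Member 47 held 107, 148 and 71.9 TPM in the controls and 1230.1, 1271 and 1244 TPM under MeJA. In all 3, and in member 53, control library 2 was the highest and control library 3 the lowest control. Their lowest MeJA values were 10.7, 9.81 and 8.31 times their highest control values, in the order given. Member 13 was less even, at 254, 359 and 148 TPM in the controls and 3385, 2423 and 4085 TPM under MeJA, with a gap of 6.74-fold.

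At the edge of the rule, members 19, 65 and 87 had lowest MeJA values 2.01, 2.02 and 2.02 times their highest control values. Member 19 held 199.9, 205 and 197 TPM in the controls and 471, 414 and 513 TPM under MeJA. Its groups were narrow and their gap small. Member 65 held 71.0, 74.1 and 82.8 TPM in the controls and 182, 218 and 167 TPM under MeJA. Member 87 held 58.4, 54.9 and 63.45 TPM in the controls and 165, 128 and 188 TPM under MeJA. The 3 genes just outside this limit had gaps of 1.99, 1.98 and 1.98-fold, and one of them was abundant, with means of 790.4 and 4027 TPM. On the side of the control level, the members just inside had control means of 50.6, 50.8 and 52.5 TPM, and the genes with the same gap just outside had 49.4, 49.2 and 48.4 TPM.

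Members 31, 86 and 1 had the narrowest MeJA spreads, of 1.01-fold each. Member 31 held 144, 124 and 163 TPM in the controls and 377, 382 and 381 TPM under MeJA. Member 86 held 59.2, 46.45 and 71.3 TPM in the controls and 150.3, 149 and 151 TPM under MeJA. At both, the controls spread more widely than the MeJA libraries, and so they did at 60 of the 94 members. The MeJA spread was under 1.2-fold at 36 members and at least 2-fold at 7, namely members 2, 4, 5, 10, 11, 15 and 68.

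Summed over the members, the level was 16971, 17556 and 16676 TPM in control libraries 1, 2 and 3 and 95937, 74547 and 110368 TPM in MeJA libraries 1, 2 and 3. As a share of all TPM this was 1.71% ± 0.04 (SD, n = 3) for controls and 9.36% ± 1.80 (SD, n = 3) for MeJA. The MeJA libraries were uneven in this sum, and a few members held the unevenness. Members 2, 4, 5, 10 and 15, the 5 with the largest differences, held 83.4% of the difference of 35821 TPM between MeJA libraries 3 and 2. Without them the other 89 members summed to 67172, 63672 and 69629 TPM under MeJA, and to 13892 ± 171 TPM in controls. These sums describe the size of the change, which the rule itself sets in part.

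**Figure D2:**
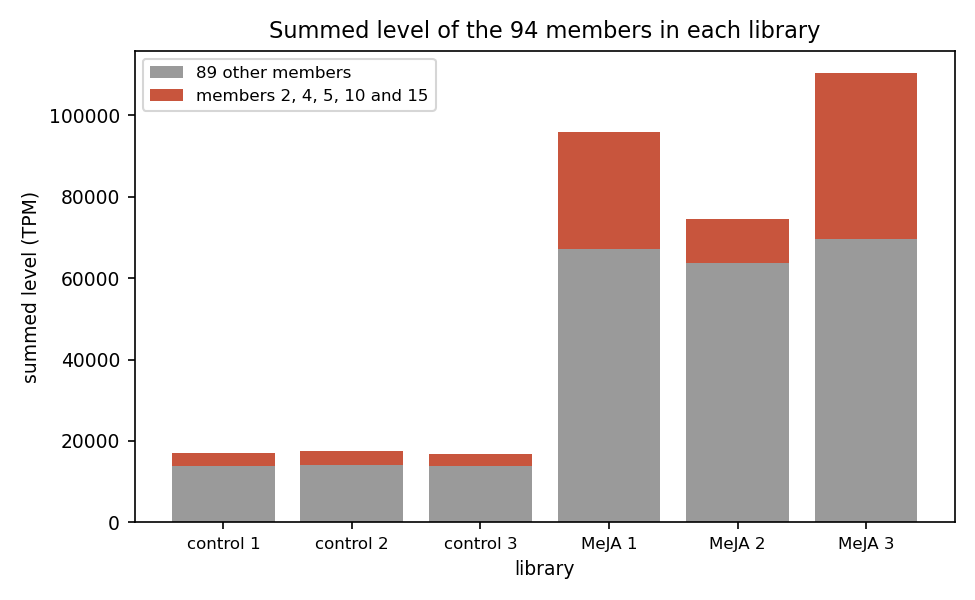
Summed level in TPM of the 94 members in each library, with members 2, 4, 5, 10 and 15 in red and the other 89 in grey. The grey part lies between 63672 and 69629 TPM in the 3 MeJA libraries, while the red part goes from 10875 TPM in MeJA library 2 to 40739 TPM in MeJA library 3.

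The control libraries lay further apart at the members than at most other genes of their level. Their highest control value was at least 2 times their lowest at 22 of 94 members, or 23.4%, and at 40 of the 3120 non-members that reached 50 TPM in the control mean, or 1.28%. The median control spread was 1.42-fold over the members and 1.09-fold over these non-members. The share was 20.5% of members and 1.05% of non-members at control means of 50 to 100 TPM, 29.0% and 1.37% at 100 to 200 TPM, and 21.1% and 1.76% above that. Among the 99 genes that moved by the same rule in the other direction, with a lowest control value at least 2 times the highest MeJA value, 5 had such a control spread. Members thus made up 35.5% of the 62 genes at this level with 2-fold spread among controls. The rule takes the control mean and the highest control value, so this is a description without a test.

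**Figure D3:**
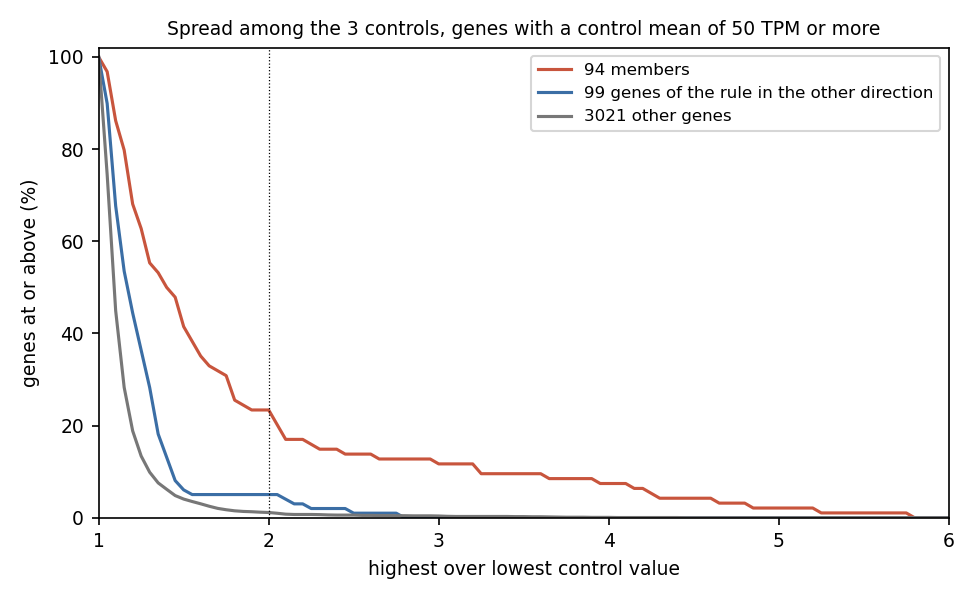
Share of genes (%) whose highest control value was at least the given multiple of their lowest, for the 94 members, the 99 genes of the rule in the other direction and the 3021 other genes that reached 50 TPM in the control mean. At the dotted line, a spread of 2-fold, the curves stand at 23.4%, 5.05% and 1.16%.

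The wide spread of these 22 members in controls did not go with a wider spread under MeJA than at the other members. Their median spread was 3.09-fold among controls, for which they were taken, and 1.24-fold under MeJA. The median MeJA spread was 1.25-fold at the other 72 members and 1.16-fold at the non-members of this level. Members 23, 33 and 9, chosen after their values were seen as the 3 with the widest control spread, show both directions. Member 23 held 214, 52.4 and 303 TPM in the controls and 2158, 2257 and 2020.4 TPM under MeJA. Member 33 held 142, 41.8 and 219 TPM in the controls and 875, 1052 and 766 TPM under MeJA. In both, control library 2 was by far the lowest and control library 3 the highest. Member 9 ran the other way, at 369.6, 653 and 135 TPM in the controls, and its MeJA libraries stood at 2155, 2268 and 2057 TPM. Control library 3 was the highest control at 13 of the 22 and control library 2 at 9. Control library 1 was in the middle at all 22, at 81 of all 94 members and at 58.7% of the non-members of this level. The median ratio of means was 6.65 at these 22 members and 3.80 at the other 72. A wide control spread lowers the control mean relative to the highest control value, so the rule favours a higher ratio there.

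The order of the libraries differed between members. Under MeJA, library 3 was the highest at 54 members, library 2 at 38 and library 1 at 2. Among the non-members of the same control level, library 2 was the highest at 64.1% and library 3 at 25.3%. The order depended on the scaling, since library 3 was the highest at 69 members under median-ratio size factors and at 45 under quantile normalization. The order under MeJA differed between members of different control order. Of the 40 members at which control library 2 exceeded control library 3, 32 had MeJA library 3 above MeJA library 2. Of the 54 others, 24 did. Under size factors these counts were 36 of 41 and 33 of 53, and under quantile normalization 27 of 39 and 22 of 55. Among the non-members, in the deposited values, the shares were 33.6% of 1460 genes and 26.7% of 1660 genes. All these genes share the same 6 libraries and the numbers do not pair a control with a MeJA library, so the counts are given as a description.

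**Figure D4:**
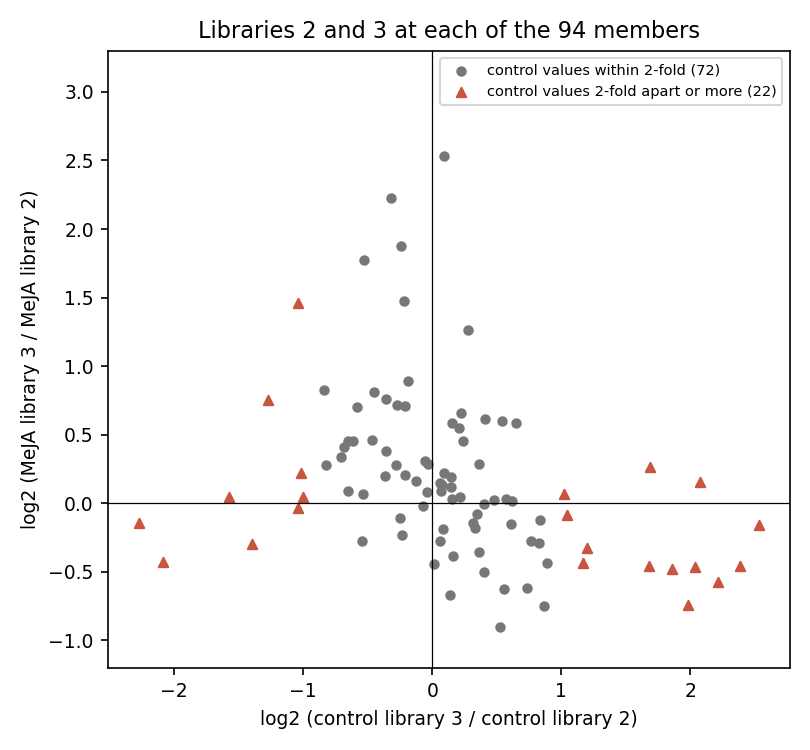
Log2 ratio of library 3 to library 2 under MeJA against the same ratio in controls, 1 point per member, with the 22 members of at least 2-fold control spread as red triangles. Of the 40 points left of the vertical line 32 lie above the horizontal line, and of the 54 right of it 24 do.

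The number of genes that met the rule depended on single libraries. Without MeJA library 2 it took 124 genes and without MeJA library 3 it took 110, the 94 members among them in both cases. Without MeJA library 1, which lay between the other libraries at most members, it took the same 94. Without control libraries 1, 2 and 3 in turn it took 95, 106 and 106 genes, with 93, 93 and 91 of the 94 members among them. With fewer libraries the gap is easier to meet, while a control mean can fall under 50 TPM. The counts are given as a description.

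Some members shared an assembly component, a piece of the Trinity graph whose genes are linked by shared sequence. Their profiles were alike in some components and not in others. The 94 members lay in 86 components, and 7 components held 15 of them. Fragments or near-identical copies of 1 gene can be listed separately, so these members are not independent, and how reads were shared between them is not stated. Member 8, in the component of member 1, held 401, 447 and 376 TPM in the controls and 1294, 1363 and 1265 TPM under MeJA. Its ratio of means was 3.20, beside 3.18 for member 1, and the order of the libraries was the same in both groups. Members 5 and 10 were also alike, with ratios of 6.28 and 6.03 and MeJA spreads of 3.66 and 3.42-fold. Members 9 and 53 were not, with ratios of 5.60 and 27.2. Their MeJA means were close, at 2160.2 and 2343 TPM, and their control means were 386 and 86.2 TPM. Within the 7 components the highest ratio of means was 1.01 to 4.86 times the lowest. The controls stood in 1 order in 6 of the 7 components and the MeJA libraries in 5. Library 1 was in the middle at most members, so like orders are common. How often members of different components shared an order was not counted.

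The components of the members also held 157 genes that did not meet the rule, here called mates, and 143 of them were abundant enough to be tested. By limma on log2(TPM + 1), at a Benjamini-Hochberg adjusted p under 0.05 over all 55498 genes, 39 mates (27.3%) rose, where 6.15% of all genes tested did, and 10 (6.99%) fell, where 12.6% did. The other 94 were not called. Under median-ratio size factors 31.0% of the mates tested rose, against 8.14% of all genes, and 2.82% fell, against 6.77%. Over all 143 mates the median log2 fold change was 0.24, against -0.17 over all genes tested, and the median level was 3.83 TPM, against 3.37 TPM. The lowest MeJA value was at least 2 times the highest control value at 31 of the 143 mates tested, against 1705 of the 55498 genes tested (3.07%). The mates that rose came from 26 of the 60 components with a tested mate. Where a mate shares sequence with a member, its level is uncertain. With libraries 2 and 3 of each group alone, 3 of 142 mates tested (2.11%) rose, against 0.198% of all genes tested.

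The mate with the largest rise, singled out after its values were seen, shared the component of member 73. It held 2.55, 0.86 and 1.53 TPM in the controls and 36.4, 39.9 and 31.8 TPM under MeJA, with no overlap between the groups. By limma it differed by 3.85 ± 0.24 on the log2 scale (SE; adjusted p = 0.000489), above that of member 73 itself, 1.84.

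The largest fall among the called mates was that of TRINITY_DN22643_c0_g3, in the component of member 60. It went from 12.4, 14.1 and 13.1 TPM in the controls to 4.05, 6.15 and 3.67 TPM under MeJA, which by limma was -1.36 ± 0.19 on the log2 scale (SE; adjusted p = 0.00542). Member 60 had a log2 fold change of 3.88. TRINITY_DN17809_c2_g6, in the component of member 83, went from 12.9, 12.5 and 13.1 TPM to 6.80, 5.66 and 2.29 TPM, or -1.32 ± 0.32 by the same fit (SE; limma adjusted p = 0.0334). These components thus held genes called in both directions.

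**Figure D5:**
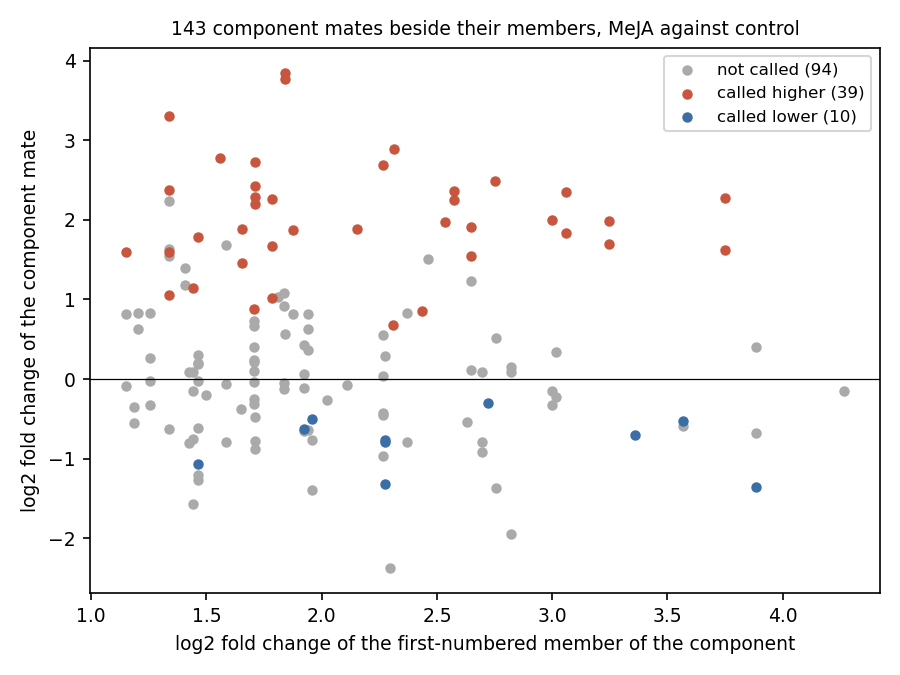
Log2 fold change on the log2(TPM + 1) scale of each of the 143 tested mates against that of the first-numbered member of its component, coloured by the limma call. The 39 mates called higher reach 3.85 and the 10 called lower reach -1.36.

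Set beside the members, the 99 genes of the rule in the other direction had a median control level of 109.5 TPM, like the members' 109 TPM, and a median MeJA level of 26.1 TPM. They went from 2.38% to 0.533% of all TPM, and the members from 1.71% to 9.36%. The 1720 genes with the members' gap and a control mean under 50 TPM went from 0.839% to 5.56%. Each of these sets was chosen on the same contrast, so the shares are a description.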

How the data were processed

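Leaf RNA was sequenced in 3 control and 3 MeJA libraries, grouped by their titles. The authors deposited 1 value per assembled gene and library. No header or label names the unit, and the deposited values were taken as TPM: every library adds up to 1000000 apart from rounding, and the low values share no common step between genes. For aligner, quantifier, assembly version and filters, the sources used here give nothing. Read depth is unknown, so no count model or interval was used.

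The rule for members was applied to the deposited TPM without rescaling. The members and lists were chosen with earlier results of these data known. Genes averaging 1 TPM or more over the 6 libraries were fitted as log2(TPM + 1) by limma 3.58.1 in R 4.3.3, with group as the only term and the prior variance following intensity, and were called two-sided at a Benjamini-Hochberg adjusted p under 0.05. The fit was also run on simulated libraries, drawn independently with normal noise at the control SD of each gene. That setting cannot show how the fit behaves where libraries are not independent. The members described one by one were the 5 with the highest control mean, the 5 with the highest MeJA mean, the 5 with the largest gap between groups, the 3 with the smallest, and the 3 with the widest and the 3 with the narrowest MeJA spread. Without names, at most 2 identifiers per direction are printed, those of the member with the highest control mean, the member with the largest gap and the mates with the largest called falls. Alternatives were other scalings, filters, a pseudocount of 0.1, no trend, the library number as a block, each library left out and other limits of the rule. The fit on libraries 2 and 3 alone, the order of libraries 2 and 3 under other scalings, and every alternative for the number of members called, were added after the data were seen.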

Additional observations from a re-analysis of the deposited data

How the results depend on the processing

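Over all genes, the balance of higher and lower calls changed with the processing. The fold changes of the members described one by one kept their sign under every alternative run. The gap that the rule asks for largely fixes that sign in advance, so nothing is read from it. From 94 genes, the rule took 116 under median-ratio size factors (90 of them members), 87 under quantile normalization (85 members), 197 at a control minimum of 25 TPM, 50 at 100 TPM, 178 at a gap of 1.5-fold, 46 at 3-fold and 168 by the ratio of means alone, and 94 to 124 with 1 library left out. The members' share of all TPM rose by 7.65 percentage points, and by 6.82 to 8.61 with 1 library left out. The median log2 fold change of the members was 2.28 under size factors and 2.05 to 2.13 with 1 library left out. Library 3 was the highest MeJA library at 57.4% of members, and at 73.4% under size factors.

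All genes called numbered 10381 (3415 higher, 6966 lower). Size factors gave 4493 higher and 3737 lower calls, so that higher calls were then the more frequent, as they were with libraries 2 and 3 alone. Dropping the trend gave 7287 (2716 higher, 4571 lower), for which the cause was not tested. A replicate block by library number gave 5748 (2175 higher, 3573 lower). The numbers were not taken to pair the samples, since the deviations of libraries with equal numbers had correlations of 0.02, -0.01 and -0.01, and 2 of 6 libraries correlated best with their own number. With 1 library left out, 4300 to 11820 genes were called (1681 to 3539 higher, 2471 to 8281 lower), and with libraries 2 and 3 alone 129 (109 higher, 20 lower), with fewer samples in each fit.

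Of the 49 mates called (39 higher, 10 lower), lower calls were 4 under size factors, 6 without the trend and 3 with the replicate block. These were 2.82%, 4.20% and 2.10% of the mates tested, against 6.77%, 8.24% and 6.44% of all genes tested. With 1 library left out, 27 to 50 were called (24 to 39 higher, 2 to 11 lower), fewest higher without MeJA library 1 and fewest lower without control library 1. With libraries 2 and 3 alone, limma called 3 mates, 3 higher and 0 lower, where 0.198% and 0.0363% of all genes tested were called. At an unadjusted limma p under 0.05, 12 mates were lower. The share of all genes at that limit was not taken, so nothing is read from the 12. The members called numbered 92 with the replicate block, where 3.92% of all genes tested were called higher. With 1 library left out they numbered 85 to 94, where 3.03% to 6.43% of all genes tested were called higher. With libraries 2 and 3 alone they numbered 11, where 0.198% of all genes tested were called higher. All 94 then had an unadjusted limma p under 0.05. The rule used the same values and the same contrast, so nothing is read from these counts. Unknown read depth limits what the levels of the low mates can show.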
